A study of Mus musculus with 18 samples.

Results

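The nuclear genes for the subunits of respiratory complex I were followed across 18 RNA-seq libraries of C2C12 cells, a mouse line that grows as myoblasts and fuses into multinucleate myotubes when serum is lowered. The genes were chosen by symbol: protein-coding genes named Ndufa, Ndufab, Ndufb, Ndufc, Ndufs or Ndufv followed by a number, which gave 38 of the 55450 genes in the count table. Another 5 entries matched the pattern but were not protein-coding (Ndufa11b, Ndufab1-ps, Ndufb1-ps, Ndufb4c and Ndufs6b), and they were left out. The subunits encoded by mitochondrial DNA were not analysed here.

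Complex I takes electrons from NADH, passes them along a chain of iron-sulfur clusters to ubiquinone, and pumps protons out of the mitochondrial matrix. Its matrix arm holds the N module, which oxidises NADH, and the Q module, which reduces ubiquinone; its membrane arm, with a proximal and a distal part, holds the proton pumps. Nuclear DNA encodes core subunits of the matrix arm and many accessory subunits that stabilise both arms, and skeletal muscle fibres are rich in the complex.

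The study asked how the dose of the Dlk1-Dio3 noncoding RNA cluster bears on muscle cell state, using C2C12 lines edited with Cas9 and a pair of guide RNAs at the promoter of Meg3, a noncoding RNA of that cluster. There were 6 groups of 3 libraries, lettered A to C. The control group (px) was a sorted population that had received the pX458 vector alone, clone 2-4 carried the genotype label Dlk1-Dio3 overexpressor, and clone 2-7 the label Dlk1-Dio3 knockout; each was sampled as growing myoblasts (MB) and as myotubes on day 3 of differentiation (MT). Each edited genotype was 1 line grown from a single cell while the control was a population, so genotype and clone cannot be told apart. No label says that the libraries of a group came from separate cultures, so p-values measure the spread between these libraries, which may be technical.

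Libraries held between 41544358 and 79140702 counts, and levels are given as CPM, counts scaled to a common library size with trimmed-mean (TMM) factors of 0.895 to 1.08. Meg3 had 0 counts in every control and every clone 2-7 library and between 5222 and 7763 counts in the clone 2-4 libraries, so it sets clone 2-4 apart but does not separate the control from the knockout label; a count of 0 allows up to 0.0687 CPM, from counting error alone. The summed level of 8 myotube markers was 1174 to 1401 CPM in control myoblasts, 2374 to 3131 in clone 2-4 myoblasts and 13589 to 17003 in clone 2-7 myoblasts. In myotubes the same sum was 18903 to 19599 CPM in the control, 32927 to 36918 in clone 2-4 and 43221 to 52947 in clone 2-7. The libraries labelled clone 2-7 myoblasts thus carried myotube markers at a level close to that of control myotubes. Their 6 myoblast and proliferation markers summed to 943 to 981 CPM. That sum was 994 to 1028 CPM in control myoblasts and 290 to 302 in control myotubes. In clone 2-7 myoblasts and in the myotubes of both clones, the myotube marker sum and the summed subunit level given below were both above the control. In clone 2-4 myoblasts the marker sum was above the control and the mean subunit sum was not (2763 against 2886 CPM). The part of the marker level in the subunit values was not tested. Of 10 markers of endothelial, blood, fat, fibroblast and epithelial cells, 1 to 6 had no count in any library of a group, and their sum ran from 12 CPM in clone 2-4 myotubes to 72.6 in control myotubes, most of it from the fibroblast markers Pdgfra and Pi16. Clone 2-4 myotube library C stood apart from its group: by a chi-square test of counts over genes it differed from A and B by 117.8 and 112.5 per degree of freedom, against 22.8 between A and B. Clone 2-4 myoblast library B differed from A and C by 37.25 and 33.03, against 8.463 between A and C. In bulk RNA, fewer cells of a type and less RNA per cell cannot be told apart.

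All 38 genes passed the filter on low counts, and 37 of them did so in all 6 groups. The exception, Ndufa4l2, passed only through clone 2-7 myoblasts and control myotubes. By position in the complex, 10 of the genes belong to the N module, 6 to the Q module, 9 to the proximal and 11 to the distal membrane arm. The remaining 2, Ndufa4 and Ndufa4l2, carry the family's name although the Ndufa4 protein is now placed in complex IV. Exons of 15 of the 38 genes overlap a gene on the opposite strand and those of 3 overlap one on the same strand; the strand setting used in counting is not given in the sources used here, so reads of such neighbours may be mixed.

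The summed level of the 38 genes was lowest in the control and clone 2-4 myoblasts and highest in clone 2-7 myotubes. Control myoblasts held 2876, 2914 and 2867 CPM in libraries A, B and C. Clone 2-4 myoblasts held 2884, 2519 and 2887 CPM, with library B below the rest. Clone 2-7 myoblasts held 3682, 3692 and 3698 CPM, above every other myoblast library. Among myotubes, the control held 3997, 4268 and 3999 CPM, clone 2-4 held 4865, 4406 and 4422, and clone 2-7 held 5652, 6006 and 6653. No control myotube library reached the lowest clone 2-4 myotube library, and no clone 2-4 library reached clone 2-7.

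**Figure D1:**
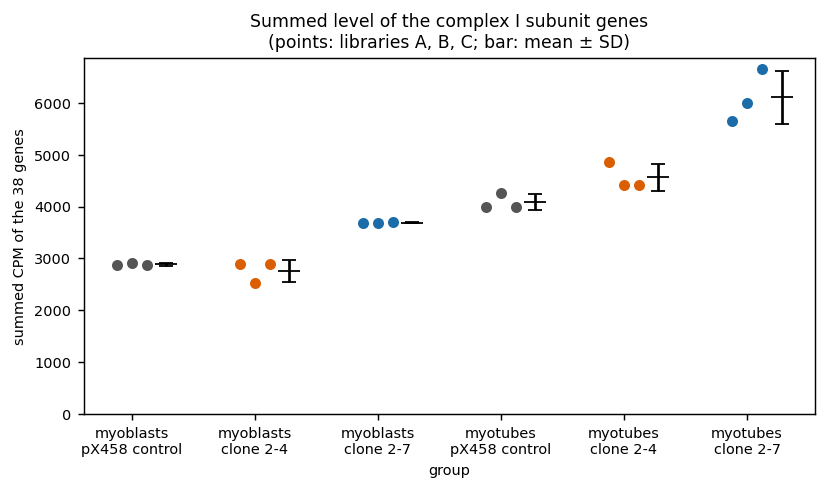
Summed CPM of the 38 complex I subunit genes (y axis, from 0) in each of the 6 groups (x axis); points are libraries A, B and C, and the bar is the mean with SD. Clone 2-7 myoblasts (mean 3691 CPM) lie between the other myoblasts and control myotubes (4088 CPM), and clone 2-7 myotubes lie highest (6104 CPM).

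Levels per kilobase of the principal transcript differed widely between the genes. The median gene stood at 73.4 CPM per kb in control myoblasts, 72.2 in clone 2-4 myoblasts and 93.2 in clone 2-7 myoblasts. In myotubes the median was 90 CPM per kb in the control, 108 in clone 2-4 and 137 in clone 2-7. Ndufa4 had the highest level per kb in 5 groups (314 CPM per kb in control myoblasts and 559 in clone 2-7 myotubes), and Ndufb7, a distal arm subunit facing the intermembrane space, had the highest in control myotubes (320 CPM per kb). Ndufa4l2, a paralog of Ndufa4 known as a target of the hypoxia factor HIF-1, was the lowest in all 6 groups, from 0.119 to 2.4 CPM per kb.

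**Figure D2:**
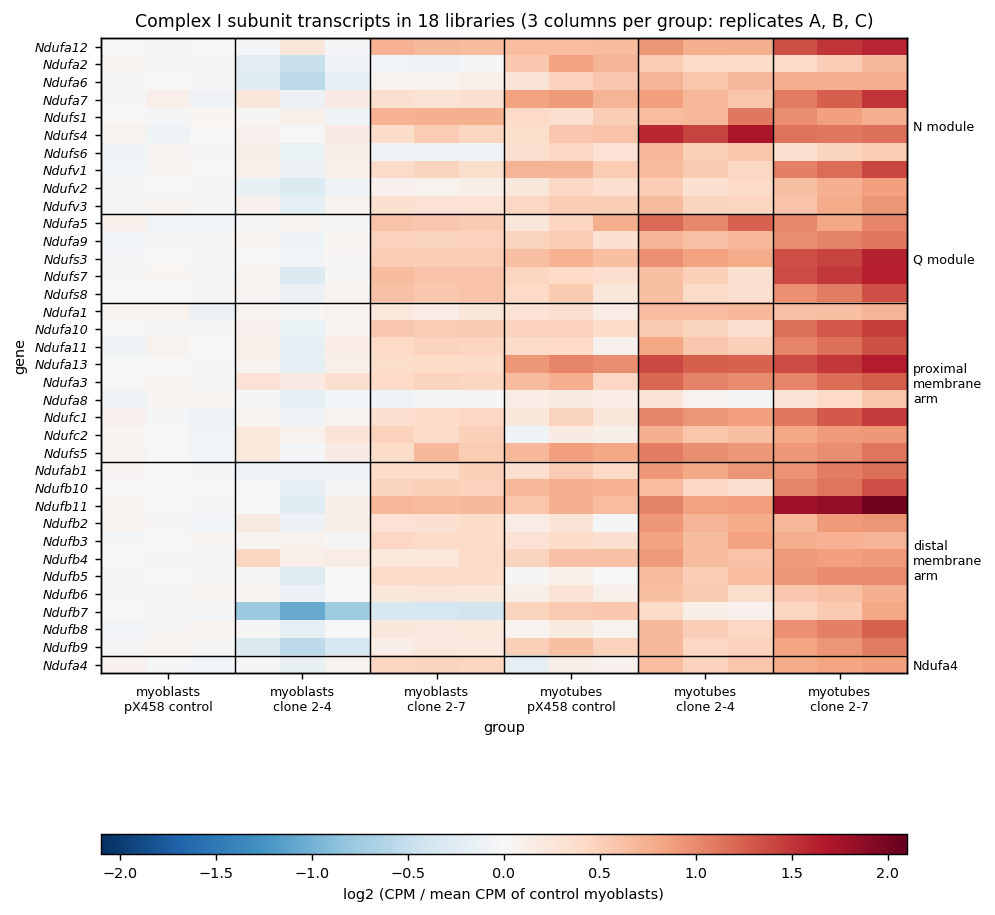
Log2 ratio of each gene's CPM to its mean in control myoblasts (colour) for 36 genes (rows, grouped by module) in 18 libraries (columns, 3 per group in the order A, B, C); Ndufa4l2, for its low counts, and 1 other gene are not drawn. Clone 2-7 myoblasts are above control myoblasts for most genes, Ndufb7 is the low row in clone 2-4 myoblasts, and Ndufb11 in clone 2-7 myotubes and Ndufs4 in clone 2-4 myotubes stand out.

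The first comparison was between clone 2-7 and control myoblasts. Of the 38 genes, 30 were higher in clone 2-7 and 1, Ndufb7, was lower, at an adjusted p under 0.05 in edgeR's quasi-likelihood test. Among all 17912 genes tested, 26.4% were higher and 26.6% were lower. The genes' median log2 fold change was 0.40, against 0.02 over all genes tested. Only 5 of the 38 changed by 1.5-fold or more (30.5% of all genes did so, in either direction): Ndufs1, Ndufa12, Ndufb11, Ndufs7 and Ndufs8. The increases were thus many and modest in size.

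In the N module, 6 of 10 genes rose in clone 2-7 myoblasts. Ndufs1, the largest core subunit and a carrier of iron-sulfur clusters, was at 113, 112 and 117 CPM in control libraries and at 189, 192 and 191 CPM in clone 2-7 libraries. The groups did not overlap, and the log2 fold change was 0.74 ± 0.10 (SE, adjusted p = 3.42e-06). Exons of Ndufs1 overlap Eef1b2 on the opposite strand, which went from 424 ± 9.03 CPM (SD, n = 3) in control to 696 ± 14.1 CPM in clone 2-7 myoblasts; whether reads of one gene were counted for the other was not tested. Ndufa12, an accessory subunit added late in assembly, was at 23.3, 22.9 and 23.5 CPM in control and at 38.7, 37.4 and 36.9 CPM in clone 2-7 libraries. Its log2 fold change was 0.70 ± 0.08 (adjusted p = 8.95e-07). Ndufv1, which binds NADH and the flavin, rose by 0.41 ± 0.09 on the log2 scale (adjusted p = 0.0007). Its partner Ndufv2 stood at 134 ± 2.76 CPM in control and 143 ± 1.97 CPM in clone 2-7 (SD, n = 3; log2 fold change 0.10, adjusted p = 0.265).

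In the Q module all 6 genes rose in clone 2-7 myoblasts, with a median log2 fold change of 0.55. Ndufs7, which carries the last iron-sulfur cluster before ubiquinone, rose by 0.62 ± 0.09 (SE, adjusted p = 1.61e-05), from 58.9 ± 1.72 to 90.6 ± 2.04 CPM (SD, n = 3). The core subunits Ndufs8 and Ndufs3 rose by 0.60 and 0.52. In the proximal arm 8 of 9 genes rose (median 0.44), the one not called being Ndufa8 at -0.04. In the distal arm 9 of 11 rose (median 0.34). Ndufb11, an X-linked subunit of that arm, led it with 0.68 ± 0.09 (adjusted p = 3.09e-06).

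Ndufb7 went the other way. It was at 139, 142 and 136 CPM in control myoblasts and at 110, 108 and 107 CPM in clone 2-7 myoblasts, with no overlap. The log2 fold change was -0.36 ± 0.10 (SE, adjusted p = 0.00432), and the call ended only under the 1.5-fold limit among the alternatives run. The 7 genes that did not pass the test were Ndufa2, Ndufa4l2, Ndufa6, Ndufa8, Ndufb9, Ndufs6 and Ndufv2. Of the calls, those of Ndufb8, Ndufb4, Ndufa7 and Ndufa1 (log2 fold changes 0.22, 0.29, 0.32 and 0.21) did not pass in every alternative, with highest adjusted p of 0.0984, 0.155, 0.0658 and 0.0995. All 8 myotube markers were higher too, with a median log2 fold change of 5.38. Of the 6 myoblast and proliferation markers, 1 was higher and 2 were lower (median -0.33). The part of either was not tested.

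**Figure D3:**
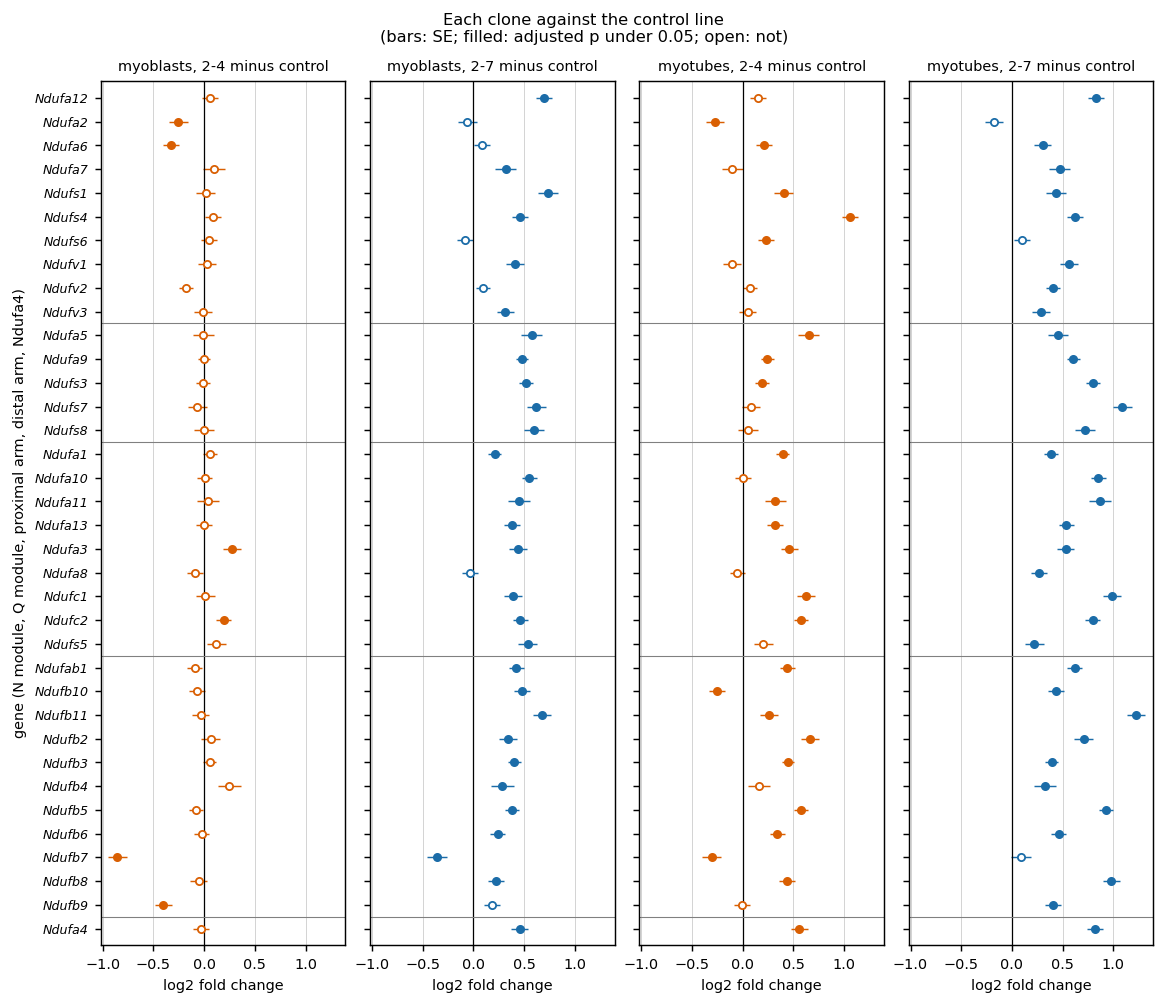
Log2 fold change of each of 36 genes (rows by module; Ndufa4l2 and 1 other gene not drawn) in clone 2-4 and clone 2-7 against the control, in myoblasts and in myotubes; bars are standard errors, filled points have an adjusted p under 0.05. Clone 2-7 points lie mostly right of 0 in both states (medians 0.40 and 0.50 over the 38 genes), while clone 2-4 myoblast points lie close to 0 apart from Ndufb7 at -0.855.

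Few of these genes differed between clone 2-4 and control myoblasts. Of the 38, 2 were higher and 4 were lower, against 20.7% and 19.7% of all genes tested, and the median log2 fold change was 0.0001. Ndufb7 was the single gene past 1.5-fold (21.6% of all genes were). It was at 80.9, 66.5 and 82.5 CPM in clone 2-4, all far below the 136 to 142 CPM of the control. Its log2 fold change was -0.855 ± 0.10 (SE, adjusted p = 1.03e-06).

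The other falls in clone 2-4 myoblasts were in Ndufb9, Ndufa6 and Ndufa2. Ndufb9 and Ndufa6, small proteins of the LYR family, fell by 0.40 ± 0.08 and 0.33 ± 0.08 on the log2 scale (adjusted p = 0.000582 and 0.00321). Ndufa2, an N module subunit, fell by 0.25 ± 0.09 (adjusted p = 0.0363), and 7 of its 24 alternatives did not pass, among them the fit without clone 2-4 library B and each fit without a control library. The proximal arm subunits Ndufa3 and Ndufc2 rose by 0.28 ± 0.09 and 0.19 ± 0.07 (adjusted p = 0.0169 and 0.0377). Ndufa3 was not called without control library C or clone 2-4 library A or C, and Ndufc2 was not called in 14 of 24 alternatives. Without control myoblast library C, 3 members were called in all. None of the 7 nuclear core subunits passed the test, and Ndufv2, at -0.18 (adjusted p = 0.0505), came nearest. Myotube markers were nevertheless higher in 7 of 8 cases (median log2 fold change 0.80).

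Set against each other, clone 2-4 myoblasts were lower than clone 2-7 myoblasts in 31 of 38 genes and higher in 0 (background 26.9% lower and 25.7% higher; median -0.39). The 6 genes past 1.5-fold (31.3% of all genes) were Ndufa4l2, Ndufs1, Ndufb11, Ndufs7, Ndufa12 and Ndufs8. All 7 core subunits were lower, from -0.28 (Ndufv2) to -0.72 (Ndufs1). The Ndufa4l2 difference of -1.25 ± 0.46 (SE, adjusted p = 0.0293) rested on 1 to 17 counts a library and was lost without clone 2-4 library C or clone 2-7 library A or C (highest adjusted p = 0.126). Of these 2 groups it passed the filter only in clone 2-7, where it is higher, so it is a description; without Ndufa4 and Ndufa4l2, 29 of 36 genes were lower and 5 passed 1.5-fold. Clone 2-7 libraries take part in this and in the control comparison, so the 2 are not independent.

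In myotubes, clone 2-7 again stood above the control. Of the 38 genes, 34 were higher (31.0% of all genes tested) and 1, Ndufa4l2, was lower (37.0% of all genes). The median log2 fold change was 0.50 against -0.07 over all genes. A change of 1.5-fold or more was seen in 17 genes, a share close to the 47.3% of all genes, 16 of them upward. The core subunits all rose, 7 of 7, by 0.41 (Ndufv2) to 1.09 (Ndufs7).

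Ndufb11 had the largest increase. It was at 123, 138 and 129 CPM in control myotubes and at 282, 295 and 334 CPM in clone 2-7 myotubes. The lowest clone 2-7 library was above every control library, and the log2 fold change was 1.23 ± 0.09 (SE, adjusted p = 9.57e-10), a 2.34-fold rise. The gene lies at chrX:20615326-20617619 on the minus strand (mm10), and its exons overlap Rbm10 on the opposite strand, which stood at 30 ± 1.46 CPM in control and 48.2 ± 2.35 CPM in clone 2-7 myotubes (SD, n = 3). That overlap's part in the Ndufb11 value was not tested. Ndufs7 was at 80.8, 78.9 and 75.1 CPM in control and at 153, 164 and 183 CPM in clone 2-7 myotubes, also without overlap. Its log2 fold change was 1.09 ± 0.09 (adjusted p = 9.03e-09).

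By module, 8 of 10 N module genes, 6 of 6 Q module genes, 9 of 9 proximal and 10 of 11 distal arm genes rose in clone 2-7 myotubes, with medians of 0.42, 0.67, 0.54 and 0.46. Ndufb8, a distal arm subunit often used as a protein marker of complex I, rose from 123 ± 5.66 to 242 ± 24.6 CPM (SD, n = 3; log2 fold change 0.98 ± 0.08 SE, adjusted p = 5.75e-09). Ndufc1 and Ndufb5 rose by 0.98 and 0.93. The genes that did not pass were Ndufa2 (-0.18), Ndufb7 (0.09) and Ndufs6 (0.10), and the call of Ndufs5 (0.22, adjusted p = 0.0453) was lost in 12 of 24 alternatives. All 8 myotube markers were higher in these libraries as well (median log2 fold change 1.28), as were 4 of 6 myoblast and proliferation markers (median 0.61; summed 498 to 522 CPM against 290 to 302 in the control). The part of either was not tested.

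Against control myotubes, clone 2-4 myotubes had 21 of 38 genes higher and 4 lower, when 26.2% and 30.9% of all genes were. With library totals in place of TMM scaling the all-gene shares were 33.2% and 24.2%. The 38 genes then split into 27 higher and 1 lower, with DESeq2 size factors into 23 and 1, and without clone 2-4 myotube library C into 25 and 1. The median log2 fold change was 0.22 (all genes -0.04), and 5 genes passed 1.5-fold (36.1% of all genes). The distal arm (7 of 11 higher, median 0.34) and proximal arm (6 of 9, median 0.32) stood above the N module (4 of 10, median 0.11) and Q module (3 of 6, median 0.14); these differences between modules were not tested. Of the core subunits only Ndufs1 (0.41 ± 0.10 SE, adjusted p = 0.00134) and Ndufs3 (0.19 ± 0.07, adjusted p = 0.0214) rose, and Ndufs3 was not called without control library A or C or clone 2-4 library A.

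Ndufs4 was the leading gene. This accessory subunit of the N module is needed for a stable complex, and its loss in people causes Leigh syndrome. It was at 58.8, 67.3 and 69 CPM in control myotubes, at 137, 121 and 149 CPM in clone 2-4 and at 101, 98.8 and 101 CPM in clone 2-7. The 3 groups did not overlap. The log2 fold change in clone 2-4 against the control was 1.06 ± 0.08 (SE, adjusted p = 1.89e-09). Ndufs4 lies at chr13:114287795-114388258 on the minus strand, with no overlapping exon of another gene. Ndufb2, a small distal arm subunit, rose next most, by 0.66 ± 0.09 (adjusted p = 5.42e-06), from 42 ± 4.29 to 66.5 ± 4.54 CPM (SD, n = 3). Ndufa5, a Q module accessory subunit, rose by 0.65 and Ndufc1 by 0.62.

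Apart from Ndufa4l2, the falls in clone 2-4 myotubes were small and depended on the setting. Ndufb7 was at 191, 203 and 205 CPM in the control and at 183, 153 and 148 CPM in clone 2-4, with library A close to the lowest control (log2 fold change -0.31 ± 0.10 SE, adjusted p = 0.011). Ndufb10 and Ndufa2 fell by 0.25 and 0.27 (adjusted p = 0.0105 and 0.0172). None of these 3 calls passed with DESeq2 size factors, library totals, the compared groups alone or DESeq2's Wald test, or without clone 2-4 library C (highest adjusted p 0.259, 0.392 and 0.262). Myotube markers were higher in 6 of 8 cases (median 0.90) and myoblast and proliferation markers in 5 of 6, with 1 lower (median 0.60; summed 394 to 408 CPM); the part of either was not tested.

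Between the clones, 24 genes were lower and 1 higher in clone 2-4 than in clone 2-7 myotubes (29.1% and 30.6% of all genes; 23.7% and 35.7% with library totals, where 19 of the 38 were lower and 4 higher), with a median of -0.29 against 0.02. The gene higher in clone 2-4 on the TMM scale was Ndufs4 (0.44 ± 0.08 SE, adjusted p = 0.000134). Ndufs7 and Ndufb11 were lowest, at -1.01 ± 0.09 and -0.96 ± 0.09 (adjusted p = 6.75e-08 and 6.27e-08). Of the core subunits 6 of 7 were lower, and Ndufs1 did not pass (-0.03, adjusted p = 0.801), its clone 2-4 libraries at 179, 186 and 247 CPM spanning the whole range of clone 2-7 at 226, 208 and 192. All 9 genes past 1.5-fold (34.4% of all genes) were lower in clone 2-4, among them Ndufs7, Ndufb11, Ndufa10, Ndufb10, Ndufa12, Ndufs8, Ndufv1 and Ndufs3.

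Ndufa4 and Ndufa4l2 parted in opposite directions. Ndufa4 was at 166, 211 and 203 CPM in control myotubes, 300, 268 and 287 in clone 2-4 and 331, 342 and 350 in clone 2-7. Against the control it was 0.56 ± 0.08 log2 units higher in clone 2-4 (SE, adjusted p = 9.4e-06) and 0.82 ± 0.08 higher in clone 2-7 (adjusted p = 7.02e-08), and neither clone overlapped the control. Ndufa4l2 was at 2.22, 2.52 and 2 CPM in control myotubes, with 110 to 117 counts a library, and between 0.0231 and 0.323 CPM in every other library. Its log2 fold change was -3.26 ± 0.32 in clone 2-4 and -3.28 ± 0.33 in clone 2-7 myotubes (SE, adjusted p = 7.6e-08 and 9.65e-08). It entered these tests through the control myotubes, where it is high, so the values are a description; without the pair, 20 genes were higher and 3 lower in clone 2-4 and 33 and 0 in clone 2-7.

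Ndufa4l2 lies at chr10:127514967-127517154 on the plus strand, and its exons overlap Shmt2, a mitochondrial serine hydroxymethyltransferase, on the opposite strand. Shmt2 was also highest in control myotubes: 655 ± 51.1 CPM (SD, n = 3) in control myotubes against 174 ± 20.4 in clone 2-4 and 267 ± 25.8 in clone 2-7 myotubes, with log2 fold changes of -1.91 and -1.29. The part of Shmt2 reads in the Ndufa4l2 values was not tested.

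Differentiation was compared within each line. In control cells, 32 of 38 genes were higher in day 3 myotubes than in myoblasts and 0 were lower; 33.9% of all genes were higher and 28.8% lower (24.2% and 39.6% with library totals). The median log2 fold change was 0.45 against 0.07, and 12 genes passed 1.5-fold (42.6% of all genes). Both matrix modules rose in full, 10 of 10 and 6 of 6, with the proximal arm at 7 of 9 and the distal arm at 8 of 11.

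Ndufa13, also known as GRIM-19, was among the genes that changed most. Ndufa13 was at 93.7, 94.1 and 92.1 CPM in control myoblasts and at 176, 189 and 184 CPM in control myotubes, an increase of 0.97 ± 0.08 in log2 units (SE; adjusted p = 4.19e-09). The groups did not overlap. Of the core subunits, Ndufv1 rose by 0.65, Ndufs3 by 0.67 and Ndufv2 by 0.34.

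The 6 genes that did not pass in control cells were Ndufa4 (0.01), Ndufb5 (0.04), Ndufc2 (0.08), Ndufb8 (0.11), Ndufb2 (0.14) and Ndufa8 (0.17). With library totals as the scale, 22 genes were higher and 2 lower. The 2 were Ndufa4 and Ndufb5, at -0.23 and -0.21 (adjusted p = 0.0204 and 0.00846). Among the core subunits, Ndufs1, Ndufs7, Ndufs8 and Ndufv2 did not pass with library totals (adjusted p = 0.106, 0.103, 0.106 and 0.188). That scale moved the median of all genes from 0.07 to -0.17, and the median of the 38 genes above it changed only from 0.3816 to 0.3780.

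In clone 2-4, 37 genes were higher in myotubes and 0 lower (29.8% and 33.0% of all genes; median 0.69 against -0.02). In clone 2-7, 36 were higher and 0 lower (29.8% and 35.6% of all genes; 22.6% and 43.8% with library totals; median 0.64 against -0.08). A change of 1.5-fold or more was found for 26 genes in clone 2-4 and 22 in clone 2-7, when 43.3% and 42.7% of all genes passed that limit. Ndufs4 rose most in clone 2-4, by 1.48 ± 0.08 (SE, adjusted p = 1.38e-11), followed by Ndufa13 at 1.29 ± 0.08. In clone 2-7, Ndufb11 rose by 1.21 ± 0.09 (adjusted p = 1.83e-09) and Ndufa13 by 1.13 ± 0.08.

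Ndufs1 did not pass in clone 2-7 (0.13, adjusted p = 0.241), but it did in 4 of 24 alternatives (lowest adjusted p = 0.014). Its myoblast libraries at 189, 192 and 191 CPM lay just below or within the myotube range of 192 to 226 CPM. Ndufa4l2 did not pass in either clone, at 1.01 (adjusted p = 0.061) and -0.26 (adjusted p = 0.586), whereas it rose by 3.22 ± 0.34 (SE, adjusted p = 1.28e-07) in control cells. It passed the filter only through control myotubes, where it is high, and clone 2-7 myoblasts, so these values are a description. Without Ndufa4 and Ndufa4l2, 31 of 36 genes were higher in control myotubes than in control myoblasts. All 8 myotube markers rose in every line, with medians of 5.64 in control, 5.81 in clone 2-4 and 1.71 in clone 2-7; most of the myoblast and proliferation markers fell (5, 6 and 5 of 6).

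**Figure D4:**
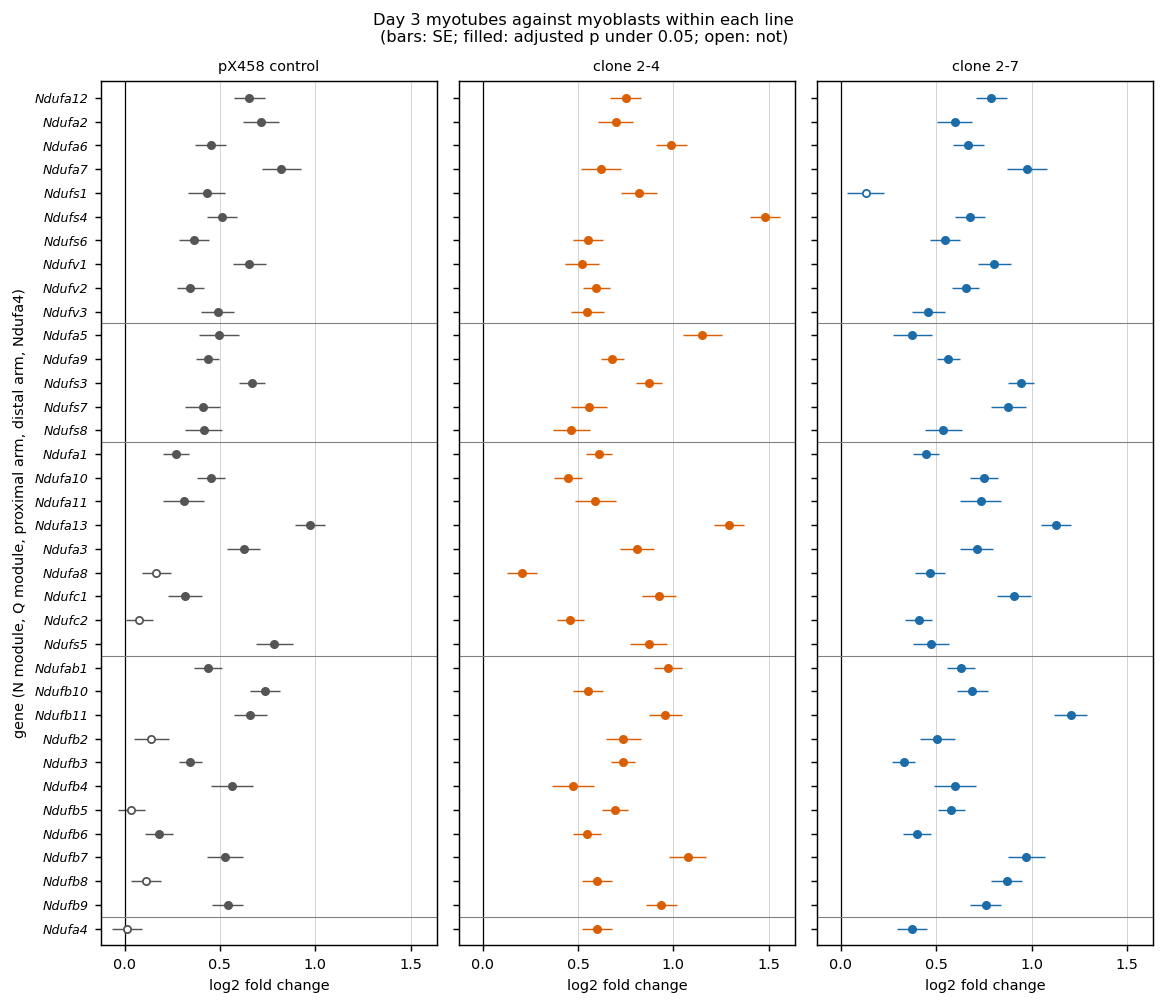
Log2 fold change from myoblasts to day 3 myotubes within the control line, clone 2-4 and clone 2-7 for 36 genes (rows by module; Ndufa4l2 and 1 other gene not drawn); bars are standard errors and filled points have an adjusted p under 0.05. Nearly all points lie right of 0, and open points are mainly in the control panel, where Ndufa4, Ndufa8, Ndufb2, Ndufb5, Ndufb8 and Ndufc2 did not pass.

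Whether the change on differentiation differed between lines was tested with an interaction term. Against the control line, the change was more positive in clone 2-4 for 18 genes and more negative for 1 (16.6% and 22.3% of all genes; on DESeq2 size factors 20.2% and 17.2%, on library totals 24.1% and 15.4%), with 7 past 1.5-fold (26.7% of all genes) and a median difference of 0.27 against -0.05. In clone 2-7 it was more positive for 14 genes and more negative for 1 (20.2% and 29.9% of all genes; 25.8% and 23.9% with DESeq2 size factors), with 3 past 1.5-fold (36.2% of all genes) and a median of 0.18 against -0.12. The control libraries are shared by both tests. The gene with a lower difference was Ndufa4l2 in both, which rose in the control and did not pass in either clone, with values of -2.21 ± 0.61 and -3.48 ± 0.52 on the log2 scale (SE, adjusted p = 0.00714 and 2.84e-05). The clone 2-4 value was not called without its myoblast library A (adjusted p = 0.092). Ndufa4l2 passed the filter only through control myotubes, where it is high, and clone 2-7 myoblasts, so both values are a description. Without Ndufa4 and Ndufa4l2, the change was more positive for 17 of 36 genes in clone 2-4 and for 13 in clone 2-7, and more negative for 0 in either.

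Ndufs4 had the largest positive difference in clone 2-4, 0.97 ± 0.11 (SE, adjusted p = 1.49e-06), and 0.17 ± 0.11 in clone 2-7 (adjusted p = 0.224). Ndufb5, a distal arm subunit, had 0.66 ± 0.10 in clone 2-4 (adjusted p = 2.57e-05) and 0.54 ± 0.10 in clone 2-7 (adjusted p = 0.000158). Its CPM stayed at 77.8 and 79.7 in control myoblasts and myotubes, and went from 73.4 to 119 in clone 2-4 and from 102 to 152 in clone 2-7. Ndufb8 had the largest positive difference in clone 2-7, 0.76 ± 0.11 (adjusted p = 2.57e-05), followed by Ndufc1 at 0.59 ± 0.13 (adjusted p = 0.000821). In the distal arm 8 of 11 genes had a more positive change in clone 2-4 than in the control, and 5 of 11 in clone 2-7; among the 7 core subunits the counts were 1 (Ndufs1) and 3 (Ndufs3, Ndufs7 and Ndufv2), with the calls of Ndufs1 and Ndufs3 not passing in every alternative (highest adjusted p = 0.0745 and 0.0787).

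**Figure D5:**
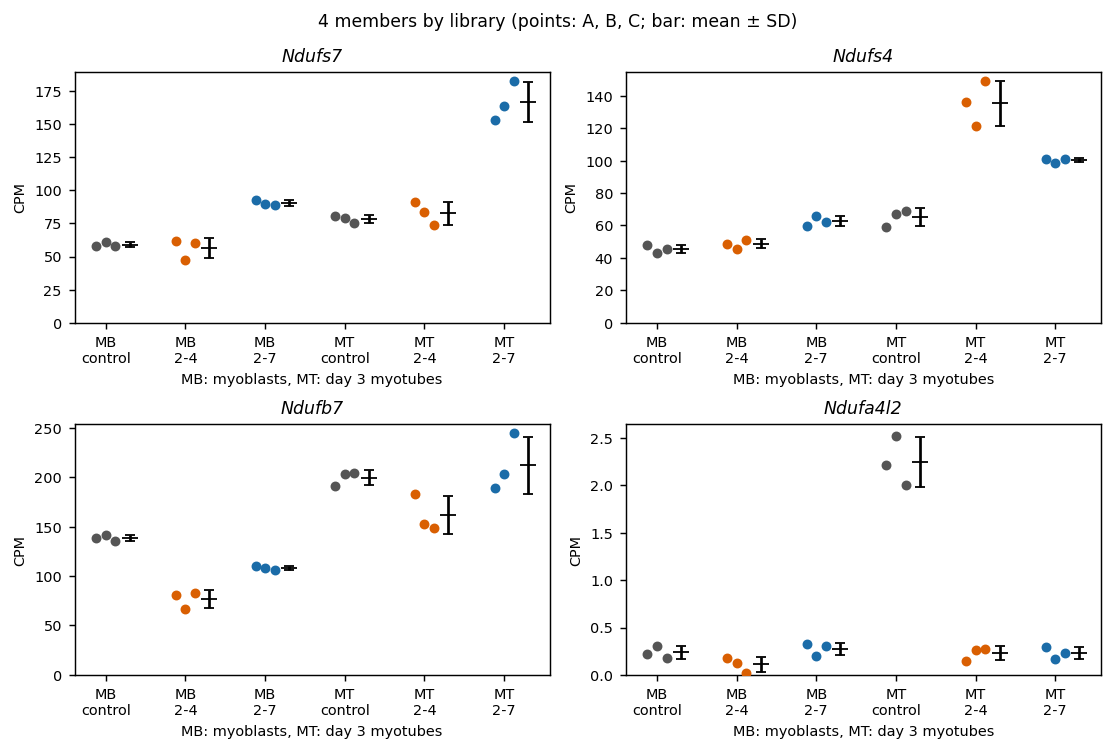
CPM of Ndufs7, Ndufs4, Ndufb7 and Ndufa4l2 (1 panel each, y axes from 0 and on different scales) in the 6 groups; points are libraries A to C and bars the mean with SD. Ndufb7 is low in clone 2-4 myoblasts (76.6 CPM), Ndufs7 high in clone 2-7 myotubes (167 CPM), Ndufs4 high in clone 2-4 myotubes (136 CPM) and Ndufa4l2 high only in control myotubes (2.24 CPM).

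Genes that work with the complex were counted from lists. Of 18 complex I assembly factors, which build the complex but are not part of it, 9 rose and 1 fell in clone 2-7 myoblasts (26.4% and 26.6% of all genes did) and 10 rose and 6 fell in clone 2-7 myotubes (31.0% and 37.0% of all genes; median 0.26). In clone 2-4 myotubes 6 rose and 0 fell (26.2% and 30.9% of all genes), and on differentiation of control cells 7 rose and 0 fell (33.9% and 28.8%); the shares that rose were close to those of all genes. Of 41 nuclear subunits of complexes II to V, 29 rose and 1 fell in clone 2-7 myoblasts (median 0.49), 24 rose and 4 fell in clone 2-4 myotubes (0.30), and 32 rose and 3 fell in clone 2-7 myotubes (0.68). The complex I medians in these 3 comparisons were 0.40, 0.22 and 0.50. On differentiation the medians of complexes II to V were 0.26 in control, 0.62 in clone 2-4 and 0.51 in clone 2-7, beside 0.45, 0.69 and 0.64 for complex I, and in clone 2-4 myoblasts -0.03 beside 0.0001. The 2 lists were not tested against each other.

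Of 14 regulators of mitochondrial biogenesis, 7 rose and 1 fell in clone 2-7 myoblasts (26.4% and 26.6% of all genes), and 6 rose and 5 fell in clone 2-7 myotubes, close to the 31.0% and 37.0% of all genes. Ppargc1a, the coactivator PGC-1alpha, was at 0.304 ± 0.139 CPM in control myoblasts, 0.305 ± 0.158 in clone 2-4 and 7.08 ± 0.407 in clone 2-7 myoblasts (SD, n = 3). In myotubes it was at 1.34 ± 0.258 CPM in the control, 0.705 ± 0.354 in clone 2-4 and 7.79 ± 1.87 in clone 2-7. Esrra, the estrogen-related receptor through which PGC-1alpha acts on respiratory genes, went from 47.2 ± 4.19 CPM in control to 107 ± 12.7 CPM in clone 2-7 myotubes (log2 fold change 1.19 ± 0.10 SE, adjusted p = 7.56e-09). Nrf1, a general activator of respiratory genes, did not pass in either clone against the control in myoblasts or myotubes. The 5 regulators that fell in clone 2-7 myotubes were Esrrg (-1.69), Gabpa (-0.88), Yy1 (-0.53), Gabpb1 (-0.45) and Ppard (-0.31 on the log2 scale). The part of these regulators in the subunit values was not tested.

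Promoters from RefSeq (GRCm38.p6; 250 bases before to 50 after the gene start) were given for 33 of the 38 genes and searched on both strands for 4 motifs. GCGCATGCG, a site of NRF1, was in 2 of the 33 genes (6.06%, against 1.75% of all 32851 promoters), CCGGAAGTG, a site of GABP, in 1 (3.03% against 2.03%) and TCAAGGTCA, a site of estrogen-related receptors, in 0 (0.423% of all). AAGATGGCG, a site of YY1, was in 5 (15.2% against 1.4%), always on the gene's own strand and just after its start. In each pair the first share counts genes and the second counts promoters. These genes had 35 promoters, and 5 of them held the YY1 letters. The matches are printed to show which letters were found and where, each 5′ to 3′ on the gene's strand with the motif or its reverse complement in capitals; in Ndufa11 the capitals are overlapping matches on both strands.
Ndufa11: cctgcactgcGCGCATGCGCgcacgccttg
Ndufa8: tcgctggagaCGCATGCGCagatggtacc
Ndufs3: tgcacatttcCACTTCCGGtccgtgccct
Ndufa9: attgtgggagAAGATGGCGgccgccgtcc
Ndufc1: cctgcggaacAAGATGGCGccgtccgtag
Ndufs4: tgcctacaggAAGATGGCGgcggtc
Ndufs6: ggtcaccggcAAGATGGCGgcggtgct
Ndufs7: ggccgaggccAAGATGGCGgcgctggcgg

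The 5 genes with the YY1 letters did not move as a block. In clone 2-7 myotubes Ndufs7 was at 1.09, Ndufc1 at 0.98, Ndufa9 at 0.61, Ndufs4 at 0.62 and Ndufs6 at 0.10, the last not passing the test; in clone 2-4 myotubes Ndufs4 was at 1.06 and Ndufs7 at 0.08. The windows of Ndufs4 and Ndufs7 are at chr13:114388045-114388069 (minus strand) and chr10:80249463-80249491 (plus strand). Ndufb11, the gene with the largest rise in clone 2-7 myotubes, held none of the 4 motifs in its 300 bases. The 250 bases before its start, at chrX:20617620-20617869 on the minus strand, are shown for that reason and are 59.2% G and C, against a median of 57.6% for these genes' promoters and 52.4% for all.
Ndufb11: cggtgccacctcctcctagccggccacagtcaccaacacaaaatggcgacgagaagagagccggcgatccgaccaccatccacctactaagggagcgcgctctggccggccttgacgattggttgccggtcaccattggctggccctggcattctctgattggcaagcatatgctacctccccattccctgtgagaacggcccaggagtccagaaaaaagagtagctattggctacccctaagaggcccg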

How the data were processed

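Poly(A) RNA from 18 libraries was sequenced, and the deposited table holds raw read counts per gene; a variance-stabilised table was not used here. Per the submitters' processing notes, the authors used STAR 2.7.9a, featureCounts, Subread 2.0.3, FastQC 0.11.7, DESeq2 1.32.0 and build mm10; roles, annotation release and strand setting are not given in the sources used here. Gene names, positions and principal transcripts came from GENCODE annotation of the same build.

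The test used edgeR 4.0.16 (R 4.3.3) on these counts: filterByExpr by group (17912 genes tested), TMM factors, and 1 quasi-likelihood fit over 6 groups (12 residual degrees of freedom, 11 contrasts). P-values were Benjamini-Hochberg adjusted over all genes tested, with a threshold of 0.05; the fit was tested on simulated data. The counts per library (41544358 to 79140702) set the counting error. No libraries were duplicates by a chi-square test. Alternatives were DESeq2 1.42.0 size factors and Wald test, library totals, no filter, a replicate block, the compared groups alone, leaving out each library, a 1.5-fold limit, and leaving out Ndufa4 and Ndufa4l2. Full values went to the 7 nuclear core subunits, the Ndufa4 pair and, per contrast, the 2 called genes at either end of the fold changes; further genes were named after their values were seen, and 1 member, counted in all totals, is not reported here by name. The members and lists were chosen with earlier results of these data known.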

Additional observations from a re-analysis of the deposited data

Results flagged for a closer look

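The genes listed here are those set for full values by the rule above. Each one whose change from myoblasts to myotubes differed between an edited clone and the control line is given. Values are differences in log2 fold change from edgeR's interaction test. Other members that passed, such as Ndufa9 in clone 2-4 (0.24) and Ndufa11 in clone 2-7 (0.42), are counted above and not listed. In clone 2-4 the change was more positive than in the control for Ndufs4 (0.97), Ndufb5 (0.66), Ndufc1 (0.61), Ndufb2 (0.60), Ndufa4 (0.59), Ndufb7 (0.55), Ndufb8 (0.49), Ndufb9 (0.40), Ndufs1 (0.39), Ndufc2 (0.38) and Ndufa13 (0.32). In clone 2-7 it was more positive for Ndufb8 (0.76), Ndufc1 (0.59), Ndufb11 (0.55), Ndufb5 (0.54), Ndufs7 (0.47), Ndufb7 (0.45), Ndufb2 (0.37), Ndufa4 (0.36), Ndufc2 (0.33), Ndufv2 (0.31) and Ndufs3 (0.28). For Ndufa4l2, which rose in the control and did not pass in either clone, the difference was -2.21 in clone 2-4 and -3.48 in clone 2-7. Both values are a description, as this gene passed the filter only through control myotubes, where it is high, and clone 2-7 myoblasts. Adjusted p ran from 1.49e-06 (Ndufs4) to 0.029 (Ndufs1) in clone 2-4, and from 2.57e-05 (Ndufb8) to 0.0253 (Ndufb2) in clone 2-7. The calls of Ndufa13, Ndufs1 and Ndufa4l2 in clone 2-4, and of Ndufb2 and Ndufs3 in clone 2-7, did not pass in every alternative, with highest adjusted p of 0.0697, 0.0745, 0.092, 0.0773 and 0.0787. Groups of 3 libraries were not put to an outlier test. By the pairwise chi-square values given above, clone 2-4 myotube library C and, with smaller values, clone 2-4 myoblast library B stood apart from their groups. Each library was left out in turn.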

How the results depend on the processing

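Requiring a 1.5-fold change left 1, 5 and 6 members called in clone 2-4 against control, clone 2-7 against control and clone 2-4 against clone 2-7 myoblasts, 5, 17 and 9 in the same myotube comparisons, 12 and 22 on differentiation of control and clone 2-7 cells, and 7 and 3 for the differentiation difference of clone 2-4 and clone 2-7 from control. That last count, 15 in the report, was 24 with DESeq2 size factors, 24 with the compared groups only and 23 with DESeq2's Wald test; the cause was not tested. With library totals, Ndufa4 and Ndufb5 reversed on control differentiation, to -0.23 and -0.21. Leaving out 1 library gave 3 to 7 members called for clone 2-4 against control myoblasts (3 without control library C), 28 to 32 for clone 2-7 against control myoblasts, 20 to 26 and 34 to 35 for clone 2-4 and clone 2-7 against control myotubes, 30 to 33 on control differentiation, and 17 to 25 and 10 to 21 for the differentiation differences. A replicate block by library letter called 5, 31 and 31 members in the myoblast comparisons, 25, 34 and 24 in the myotube comparisons, 31, 37 and 36 on differentiation, and 18 and 15 for its differences. Whether the letters pair the libraries is not known from the labels. Of 45 same-letter pairs, 4 correlated above 0.1 (-0.358 to 0.264). Different-letter pairs were not compared, so a shared culture or batch by letter cannot be told from these values. Over 231 results of the 21 genes set for full values, 5394 alternatives kept the call or its absence. Another 76 lost the call, 70 gained one and 2 reversed direction with a call. Changes of sign where neither fit gave a call are counted among the 5394. DESeq2 size factors moved the all-gene median from -0.04 to 0.07 and from -0.07 to 0.06 in clone 2-4 and clone 2-7 myotubes against control. Depth limited Ndufa4l2 alone, at 1 to 21 counts a library outside control myotubes.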
